A study of Mus musculus with 6 samples.

Results

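The suppressor of cytokine signalling (SOCS) genes were examined as 6 members, Cish, Socs1, Socs2, Socs3, Socs5 and Socs6, of the 21951 protein-coding genes in the GENCODE M21 annotation of the mouse mm10 build. The members were chosen by name, and every ATAC-seq peak in the gene body or within 30 kb of it was taken. Overlapping or touching peaks from the 6 lists were merged into regions, which gave 125 regions near these genes of 236017 in the genome. Of the 125, 80 lay at Socs6, because its annotated gene body spans 262258 bp, and 45 lay at the other 5 genes.

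ATAC-seq maps open chromatin by sequencing the DNA that the Tn5 transposase can cut in nuclei. The libraries came from wild-type C57BL/6 mouse naive CD4+CD62L+ T cells that had been activated with antibodies to CD3 and CD28 and differentiated in culture, with 2 libraries (replicates 1 and 3) of each of 3 subsets. Th2 cultures held IL-4, IL-2 and an antibody to IFN-γ, and Th9 cultures held the same with TGF-β1. Th17 cultures held IL-6, TGF-β1, IL-23 and IL-1β with antibodies to IFN-γ, IL-4 and IL-2, so the subsets differ in several cytokines at once and the part of any single cytokine cannot be told apart. Each library had its own peak list of 100317 to 142213 peaks, which covered 80.7 to 118 Mb. At the signature cytokines the strongest peaks followed the labels. The Il9 promoter held a peak at percentiles 88.6 and 90.7 in Th9, 37.1 and 44.4 in Th2 and none in Th17, the Il4 promoter held one in the Th9 and Th2 libraries but not in Th17, and the Il17f promoter held one only in the Th17 libraries. The Il17a promoter held one at 81.4 and 69.5 in Th17 and also at 36.1 in Th2 replicate 3. The T-cell gene Cd3e had a promoter peak in all 6 lists, while Cd4 had one in 4. The B-cell gene Ms4a1 and the myeloid genes Lyz2 and Csf1r had no promoter peak in any list.

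Cytokine receptors signal through Janus kinases (JAKs), which phosphorylate STAT transcription factors. STAT proteins then enter the nucleus and switch on SOCS genes, whose SH2-domain proteins bind back to the receptor or kinase and shut the signal off. Cish and Socs2 are classic targets of STAT5, which IL-2 activates, Socs1 is induced by interferons, IL-4 and IL-2, and Socs3 is the main inhibitor of IL-6 and STAT3 signalling. Socs5 and Socs6 belong to the same family but are less tied to STAT induction.

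Peak strength is given as a percentile, the share of the peaks in a library's own list whose fold enrichment over background was at or below that of the peak. This rank puts lists of unequal length on 1 scale, and a region without a peak is set to 0. The fold is an average over a broad peak, so a wide peak can rank below a short one with the same summit. Covered length is the number of base pairs of a window or region that lie inside peaks. A region was called lower in Th17 when both Th17 percentiles were below all 4 of Th9 and Th2, and higher when both were above.

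All 6 SOCS promoters held a peak in every library. The promoter, a window that starts 1000 bp before an annotated start and ends 100 bp after it, was called in all 6 lists for 6 of 6 members, against 58.7% of protein-coding genes. The joined promoter regions were broad, and those of Socs1, Cish and Socs2 also overlapped promoter windows of other genes (Tnp2, Gm17040 and 5730420D15Rik). Socs1 had the widest at 9953 bp, followed by Socs6 (5886 bp), Cish (5303 bp), Socs2 (4707 bp), Socs5 (3463 bp) and Socs3 (2735 bp), against a median of 1425 bp for regions called in all 6 libraries. Every list had a peak in 34 of the 125 regions, 27.2% against 21.4% of all regions, and without Socs6 the count was 24 of 45. The map of percentiles by library shows these 45 regions. Among them 10 were lower in Th17, against 5.1% of all regions, and 3 were higher, against 5.7%. At Socs6 the order was the other way, with none of 80 lower and 7 higher. Of the 24 regions called in all 6 libraries outside Socs6, 6 had a lower percentile and 11 a shorter covered length in both Th17 libraries. Over all regions called in all 6 libraries those shares were 10.8% and 13.2%, and 1 of the 24 had a higher percentile in Th17 against 7.71%. The median difference, Th17 minus the mean of Th9 and Th2, was -2.91 percentile points over the 24 regions and 0.031 over all 50493 such regions.

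**Figure D1:**
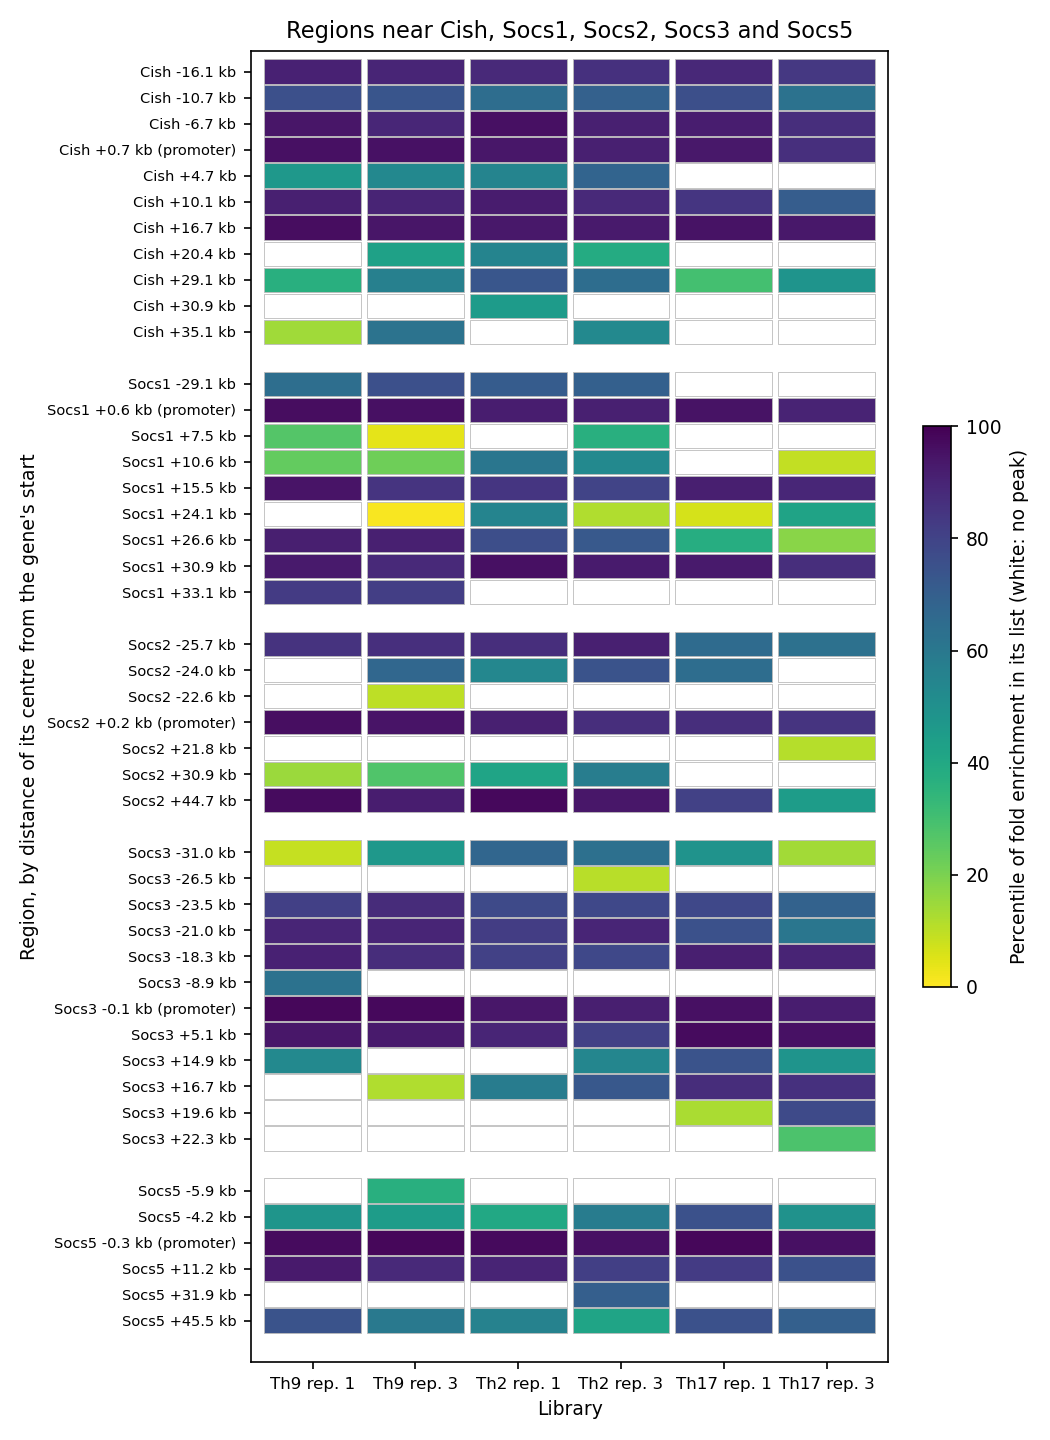
Percentile of fold enrichment of the strongest peak in each region (rows, ordered by distance of the region's centre from the gene's start) in each library (columns) for Cish, Socs1, Socs2, Socs3 and Socs5. White cells hold no peak, and the white Th17 cells at Cish +4.7 kb, Socs1 -29.1 kb and Socs2 +30.9 kb sit beside 4 filled cells of Th9 and Th2.

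Cish (chromosome 9, 107296026 to 107302784, plus strand) encodes the cytokine-inducible SH2 protein, an inhibitor of IL-2 receptor signalling. Peaks covered 21424 and 26558 bp of its window in Th9 and 26336 and 27456 bp in Th2, but 15071 and 17746 bp in Th17. The Th17 values lay below all 4 others, with means of 16409 ± 1892 bp in Th17 (SD, n = 2), 23991 ± 3630 bp in Th9 and 26896 ± 792 bp in Th2. The difference from the mean of Th9 and Th2 was -9035 bp, or -35.5%, with an exact two-sided permutation p = 0.0667, the smallest that 15 arrangements of 2 against 4 libraries can give. A shorter Th17 coverage is common in these lists: 23.1% of protein-coding genes had a window covered less in both Th17 libraries, 4.2% more, and the median change was -16.1%. Counted from the largest loss, the Cish change stood at percentile 20.2 among genes with any coverage. The list with the least total coverage was that of Th9 replicate 3 (80.7 Mb), which covered more of Cish than either Th17 library (96.0 and 91.5 Mb). The part of the general shortness in the Cish difference was not tested. Averaged over the libraries 33.6% of the Cish window was covered, the 99.5th percentile among protein-coding genes.

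**Figure D2:**
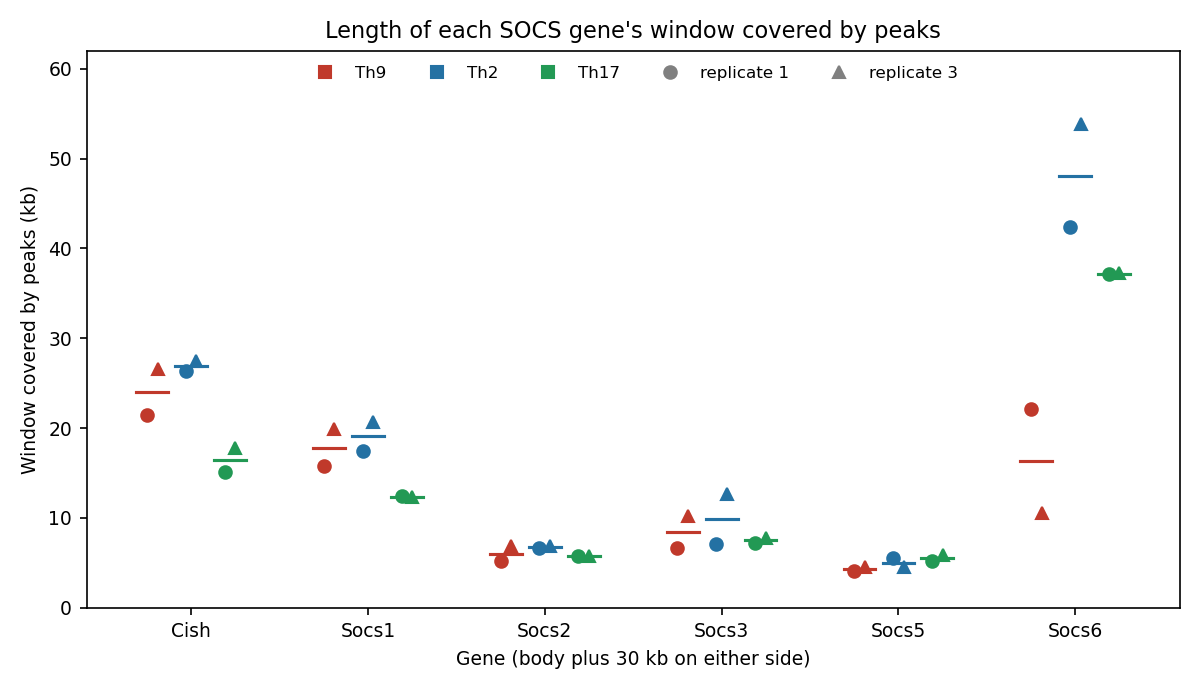
Length covered by peaks (kb, linear axis) in the gene body plus 30 kb on either side, for each library; points are libraries (circles replicate 1, triangles replicate 3) and lines the mean of 2. Th17 points lie below all Th9 and Th2 points at Cish and Socs1, and overlap them at Socs2, Socs3, Socs5 and Socs6.

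The shortfall at Cish included a narrower promoter peak, a broken downstream domain and shorter peaks in further regions. At +29.1 kb (chr9:107323471-107326768), for example, peaks covered 769 and 817 bp (Th9), 2229 and 3298 bp (Th2) and 285 and 445 bp (Th17). In Th9 and Th2 the promoter lay in an unbroken peak of 5130, 5224, 5054 and 5176 bp. In Th17 replicate 1 the same stretch was split into 3 peaks of 508, 1794 and 1014 bp, and in Th17 replicate 3 into 2 peaks of 3021 and 952 bp. The gap shared by both Th17 libraries ran from 1271 to 2004 bp after the first annotated start, inside the Cish gene. Promoter percentiles were 95.8 and 95.6 (Th9), 93.8 and 91.1 (Th2) and 93.7 and 86.4 (Th17). These overlap (difference -4.03, exact permutation p = 0.2), so the Th17 peaks were narrower at a rank that did not set Th17 apart.

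Downstream, the region centred at +10.1 kb (chr9:107302254-107310063) begins in the last Cish exon, runs past the gene's end and also overlaps the promoter window of Gm17041. Its percentiles fell from 91.3, 90.0, 92.4 and 88.5 in Th9 and Th2 to 84.7 and 70.8 in Th17. Its covered length was 5542, 7098, 7808 and 7786 bp in Th9 and Th2 and 3426 and 3539 bp in Th17, and no other region contributed as much to the difference in the window. Between it and the promoter, the region at +4.7 kb (chr9:107300184-107301246, reaching into the last Cish exon) was called in each Th9 and Th2 list, at percentiles 46.8, 53.2, 55.0 and 68.1, and in neither Th17 list. This pattern, called in all 4 and absent from both, was seen in 2.0% of all regions and in 3 of the 45 here. The peak was weak: with a −log10 q of at least 5, only Th2 replicate 3 kept it. The lowest folds listed were 2.11 and 1.83 (Th9), 1.81 and 1.73 (Th2) and 1.76 and 1.71 (Th17), and their part in the absence of a Th17 peak was not tested. The strongest Cish region by mean percentile, at +16.7 kb (chr9:107311141-107314231, intergenic), did not separate the subsets, with percentiles from 93.0 to 96.5 in all libraries.

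**Figure D3:**
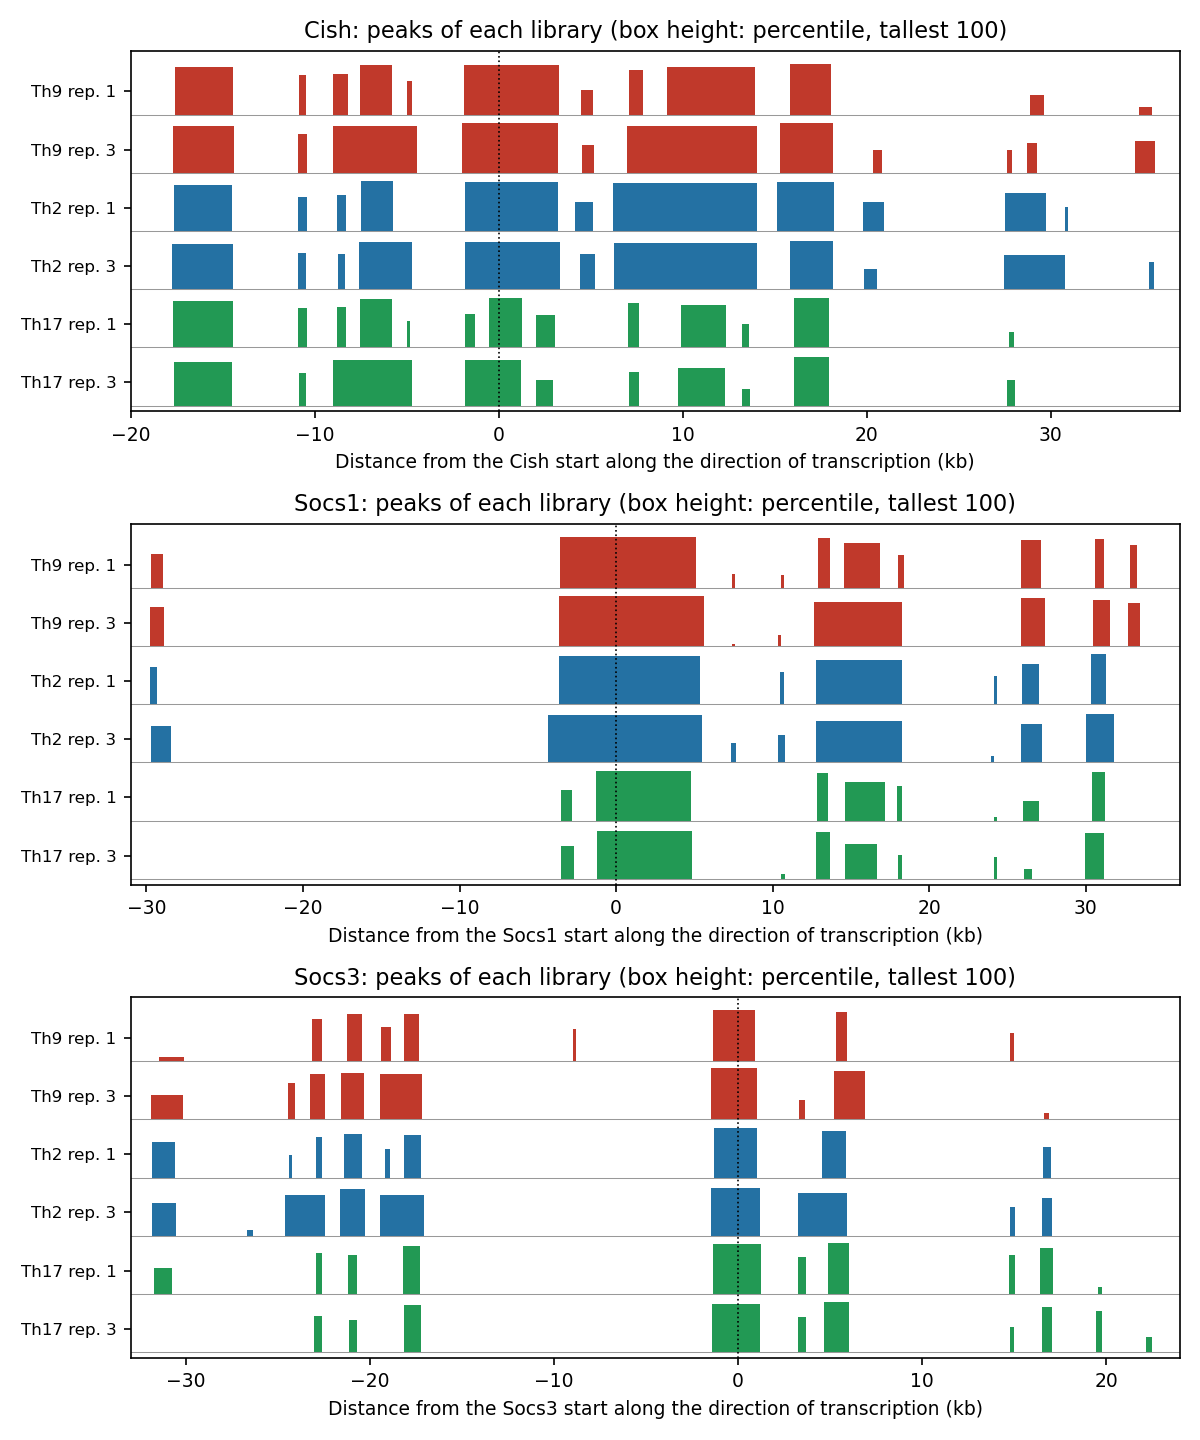
Peaks of each library along Cish, Socs1 and Socs3, by distance from the gene's start in kb (dotted line at 0); box width is the peak and box height its percentile. At Cish the Th17 boxes are broken or missing between 0 and 15 kb. At Socs1 they are missing at -29.1 kb and short at +26.6 kb, and at +33.1 kb only Th9 has boxes. At Socs3 the +16.7 and +19.6 kb boxes are tallest in Th17.

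STAT dimers bind palindromes, so the reference sequence under the regions was searched for TTCNNNGAA and for TTCNNNNGAA, the wider spacing that STAT6 prefers. Both words read the same on either strand and matches of the 2 can overlap in part. They are letters in the reference, not measured binding. The 8 copies of TTCNNNGAA in the Cish promoter region included 4 within 300 bases, a number reached in 0.294% of the 1700 regions at least as wide. They form 2 pairs, printed on the plus strand because no other member's promoter region holds as many in 300 bases, with the words in capitals. The first pair starts 51 bases before the second annotated start and the next pair 54 bases after it. By the RefSeq annotation the Cish start is 107296659, the first base of the first pair, so neither pair lies before it. The 250 bases before the RefSeq start held neither word at Cish or Socs1 and 1 copy of TTCNNNGAA at Socs3. Of all promoters searched in this way, 7.02% held TTCNNNGAA and 5.85% TTCNNNNGAA.
Cish pair, chr9:107296659-107296678: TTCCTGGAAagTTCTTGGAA
Cish pair, chr9:107296764-107296789: TTCTAGGAAgatgaggcTTCCGGGAA
Both pairs lay inside a peak in all 6 libraries, Th17 included, as the plot of promoter peaks with word positions shows. Across the Cish regions 20 copies of TTCNNNGAA were found. The number inside peaks was 16 and 18 (Th9), 18 and 19 (Th2) and 10 and 11 (Th17). Of the 20, 5 lay in peaks of all Th9 and Th2 libraries and of neither Th17 library, against 3.68% of such words in all regions. Of the 64866 words in all regions, 31677 and 25793 (Th9), 36376 and 34606 (Th2) and 27726 and 26800 (Th17) lay inside peaks. These counts rest on the same peaks as the covered length and are not a separate measure.

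Socs2 (chromosome 10, 95385362 to 95417180, minus strand), the inhibitor of growth hormone receptor signalling and a STAT5 target in T cells, was the only member whose promoter rank was lower in both Th17 libraries, a call that was lost with lists of equal length, where Th17 replicate 3 (85.1) lay above Th2 replicate 3 (84.5). Its promoter percentiles were 96.3 and 94.8 (Th9), 91.2 and 87.1 (Th2) and 86.9 and 85.1 (Th17). The 2 Th17 values lay just under the lower Th2 value, and the difference of -6.36 had an exact permutation p of 0.133. Both Th17 libraries ranked below all others at 6.66% of protein-coding promoters and above at 3.81%, so a count of 1 in 6 members says little beside that share. Promoter breadth did not follow the rank, since the peak was 4645 and 4604 bp wide in Th17 and 3761 to 4667 bp elsewhere. The larger separations were distal. At +44.7 kb (chr10:95371508-95372759, intergenic) the percentiles were 96.9 and 92.1 (Th9), 97.8 and 94.0 (Th2) and 80.7 and 45.2 (Th17). At -25.7 kb (chr10:95442340-95442867, upstream and outside any gene) they were 85.2, 86.4, 87.1 and 91.2 in Th9 and Th2 against 65.6 and 63.2. In total 4 of the 7 Socs2 regions were lower in Th17 and none higher, among them a weak region at +30.9 kb (14.9, 27.5, 41.5 and 57.9, with none in Th17). That region was lost as well with lists of equal length, which hold no peak there in Th9 replicate 1, and at every stricter threshold tried on the fold or the q value. Covered length over the whole window did not separate the subsets, at 5186 and 6893 bp (Th9), 6682 and 6832 bp (Th2) and 5729 and 5771 bp (Th17), with an exact permutation p of 0.4.

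The Socs2 promoter held a pair of words with the same 2-base spacing as the first Cish pair. It is shown on the minus strand, beginning 66 bases before the most upstream start of the basic annotation.
Socs2 pair, chr10:95416904-95416923: TTCCTGGAAagTTCCTGGAA
It lay inside a peak in all 6 libraries. Of the 2329 regions at least as wide, 22.4% hold 2 or more such words within 300 bases, so the pair is not rare by count alone.

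**Figure D4:**
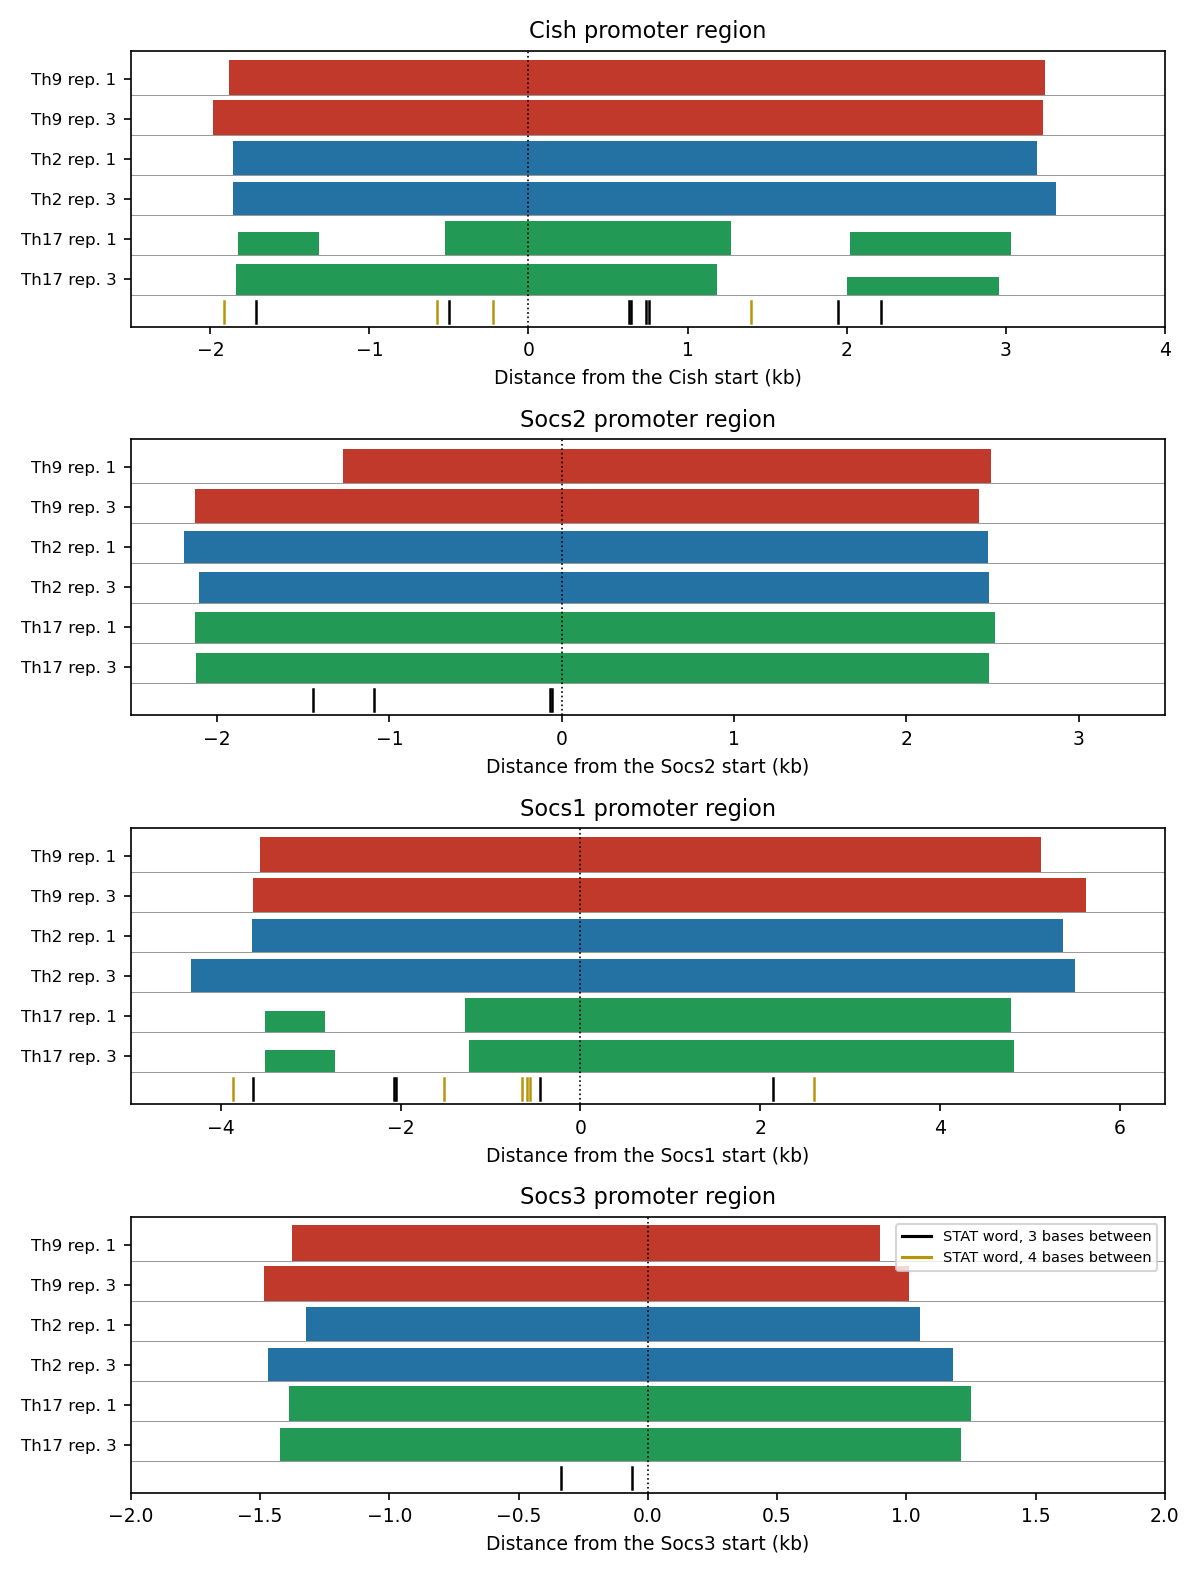
Promoter peaks of Cish, Socs2, Socs1 and Socs3 in each library by distance from the gene's start in kb, with box height as percentile; ticks below mark STAT words with 3 (black) or 4 (ochre) bases between TTC and GAA. The Cish cluster of 4 black ticks near 0.7 kb lies under peaks of all libraries, whereas the Socs1 pair near -2 kb lies under Th9 and Th2 peaks and in a gap of both Th17 libraries.

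Socs1 (chromosome 16, 10782240 to 10785536, minus strand) encodes an inhibitor of the JAK kinases themselves. Its window was covered over 15764 and 19904 bp (Th9), 17484 and 20693 bp (Th2) and 12437 and 12282 bp (Th17). Both Th17 values were below all others, with means of 12360 ± 110 bp (SD, n = 2), 17834 ± 2927 bp in Th9 and 19089 ± 2269 bp in Th2. The difference of -6102 bp, -33.1%, had an exact permutation p of 0.0667, again the smallest possible. Counted from the largest loss, the Socs1 change stood at percentile 22.9 among genes with any coverage. Cish and Socs1 were 2 of 6 members covered less in both Th17 libraries, to be read against the 23.1% of all genes. The promoter peak was an unbroken 8686, 9268, 9024 and 9833 bp in Th9 and Th2. In Th17 it was 6074 and 6062 bp wide, with a separate piece of 665 and 789 bp further upstream. Percentiles of the promoter did not separate the groups (96.8, 96.0, 92.0 and 91.0 against 95.1 and 90.6, difference -1.08, exact permutation p = 0.533).

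The joined Socs1 promoter region also overlaps the gene Tnp2 and its promoter window, so the stretch below was not assigned to either gene. The stretch lost from the Th17 promoter peak, between -2724 and -1283 bp, held 2 copies of TTCNNNGAA. The 300 bases around them are printed on the minus strand with the words in capitals, since these words lay in peaks of all Th9 and Th2 libraries and of neither Th17 library.
Socs1 upstream stretch, chr16:10787442-10787741: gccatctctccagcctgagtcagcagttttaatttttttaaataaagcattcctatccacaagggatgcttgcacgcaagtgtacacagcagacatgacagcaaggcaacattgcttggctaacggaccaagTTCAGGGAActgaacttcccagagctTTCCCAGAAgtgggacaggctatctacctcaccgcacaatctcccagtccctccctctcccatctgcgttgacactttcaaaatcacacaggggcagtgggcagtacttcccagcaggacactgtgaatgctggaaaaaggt
Of the 390 regions at least as wide, 41.0% hold as many words within 300 bases.

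3 distal Socs1 regions, all outside annotated genes, set a subset apart from the rest, as did a weaker region at +10.6 kb given after them. The region at +33.1 kb (chr16:10752085-10752862) was called only in Th9, at percentiles 82.5 and 81.9, and was the only region of the 45 with that pattern, which 1.31% of all regions show. At +26.6 kb (chr16:10758136-10759705) the percentiles were 91.6 and 91.2 (Th9), 76.3 and 72.5 (Th2) and 37.7 and 17.7 (Th17), so the subsets did not overlap in that order. The region at -29.1 kb (chr16:10813960-10815301) was called at 64.4 and 75.5 in Th9 and 71.2 and 69.8 in Th2 and had no peak in Th17. With a −log10 q of at least 5 the first kept both Th9 peaks, the second kept all 4 Th9 and Th2 peaks and neither of Th17, and the third kept 3 of its 4. The central 300 bases of the first 3 regions are printed on the plus strand, with STAT words in capitals. Only centres that hold a word were to be printed, so their presence here is not a result. The centres at +10.6 and +7.5 kb, also named by the rule, hold neither word. Nor do those of the Cish regions named for a subset pattern or a large difference.
Socs1 +33.1 kb, chr16:10752323-10752622: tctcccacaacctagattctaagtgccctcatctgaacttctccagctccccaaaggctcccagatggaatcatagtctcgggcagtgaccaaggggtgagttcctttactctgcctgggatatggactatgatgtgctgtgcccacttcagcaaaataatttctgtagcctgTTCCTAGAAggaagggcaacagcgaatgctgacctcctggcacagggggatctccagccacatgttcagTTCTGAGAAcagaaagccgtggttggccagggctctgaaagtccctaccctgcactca
Socs1 +26.6 kb, chr16:10758770-10759069: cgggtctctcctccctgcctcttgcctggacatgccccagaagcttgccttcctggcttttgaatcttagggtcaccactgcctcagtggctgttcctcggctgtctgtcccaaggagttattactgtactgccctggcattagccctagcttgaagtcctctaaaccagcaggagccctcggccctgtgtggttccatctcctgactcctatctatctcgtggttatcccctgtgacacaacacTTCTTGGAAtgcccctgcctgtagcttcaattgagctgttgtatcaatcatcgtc
Socs1 -29.1 kb, chr16:10814480-10814779: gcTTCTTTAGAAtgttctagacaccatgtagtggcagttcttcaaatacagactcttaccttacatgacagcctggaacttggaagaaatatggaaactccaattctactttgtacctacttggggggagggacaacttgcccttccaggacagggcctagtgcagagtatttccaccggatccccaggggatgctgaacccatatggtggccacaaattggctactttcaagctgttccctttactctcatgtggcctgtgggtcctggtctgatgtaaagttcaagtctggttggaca
A central stretch of 300 bases held TTCNNNGAA in 9.08% and TTCNNNNGAA in 6.82% of all regions of at least that width. Among the regions of the 6 members of at least 300 bp, 15 and 7 of 103 held them. Of the 20 copies of TTCNNNGAA in Socs1 regions, the number inside peaks was 16 and 18 (Th9), 13 and 16 (Th2) and 8 and 9 (Th17). 4 of them lay in peaks of all Th9 and Th2 libraries and of neither Th17 library, against 3.68% of such words in all regions.

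Socs3 (chromosome 11, 117966079 to 117970047, minus strand), the feedback inhibitor of IL-6 and STAT3, was the member with Th17-high regions outside Socs6. Of its 12 regions 3 were higher in Th17 and 1 was lower. The strongest of them, at +5.1 kb (chr11:117962286-117965952, downstream of the gene), was open in all libraries, with percentiles of 94.1 and 93.0 (Th9), 89.7 and 80.9 (Th2) and 96.9 and 95.3 (Th17). At +16.7 kb (chr11:117952094-117952785, intergenic) Th17 had 87.4 and 86.1, Th2 had 58.3 and 73.0, and Th9 had no peak in replicate 1 and 11.9 in replicate 3. The subsets did not overlap, with Th17 highest and Th9 lowest. At +19.6 kb (chr11:117949394-117949754) a peak was called only in Th17, at 12.5 and 77.7, a pattern of 1.7% of all regions, and the weaker of the 2 was lost with a −log10 q of at least 5. The +5.1 kb region held 5 copies of TTCNNNGAA, of which 2 lay in peaks of both Th17 libraries and also of Th9 replicate 3. Of these 2, 1 also lay in a peak of Th2 replicate 3. No copy of either word lay in the +16.7 and +19.6 kb regions, which says only that the letters are not in these windows.

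The Socs3 promoter itself was not higher in Th17. Its percentiles were 98.4 and 97.8 (Th9), 94.1 and 91.5 (Th2) and 96.1 and 92.1 (Th17), with a difference of -1.35 and an exact permutation p of 0.667. Its peak was 2640 and 2635 bp wide in Th17 and 2276 to 2651 bp elsewhere. The promoter region held TTCCAGGAA 61 bases and TTCTTAGAA 334 bases before the start of the basic annotation, both inside a peak in all libraries. From the RefSeq start (117969366), TTCTTAGAA lay 154 bases before and TTCCAGGAA after. On the other side, the region at -21.0 kb (chr11:117989461-117990844), inside the neighbouring gene Pgs1, was lower in Th17 (75.0 and 60.8) than in Th9 (89.8 and 89.5) and Th2 (82.4 and 89.5). Total covered length overlapped between the groups, at 6604 and 10194 bp (Th9), 7102 and 12658 bp (Th2) and 7249 and 7789 bp (Th17) (exact permutation p = 0.667).

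Socs5 (chromosome 17, 87107679 to 87137839, plus strand), described as a regulator of IL-4 and EGF receptor signalling, did not separate the subsets. Its promoter percentiles ran from 95.8 to 98.3 over the 6 libraries, and none of its 6 regions was lower or higher in Th17. Covered length was 4073 and 4558 bp (Th9), 5502 and 4502 bp (Th2) and 5173 and 5833 bp (Th17), a difference of 844 bp (exact permutation p = 0.267). Socs5 regions held no copy of TTCNNNGAA and 2 of TTCNNNNGAA in 6758 bp.

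Socs6 (chromosome 18, minus strand), which binds activated receptor tyrosine kinases, had a strong promoter in every library, at percentiles of 99.1 and 98.0 (Th9), 97.0 and 95.7 (Th2) and 97.5 and 96.9 (Th17). Around it lay many weak regions, 24 of them with a peak in only 1 library and 10 with a peak in all 6. Th9 replicate 3 called 13 of the 80 and Th9 replicate 1 called 33, against 54 and 56 in Th2 and 48 and 34 in Th17. Covered length followed, at 22168 and 10606 bp (Th9), 42380 and 53802 bp (Th2) and 37137 and 37227 bp (Th17). The Th9 values lay below all others, as for 14.6% of protein-coding genes, and Th9 against Th2 had an exact permutation p of 0.3333, the smallest that 2 against 2 can give. The Th9 lists also had the highest lowest folds, and the part of that in the Socs6 difference was not tested. Of the 80 regions, 6 were called only in both Th2 libraries, against 2.87% of all regions, and 4 only in both Th2 and both Th17 libraries, against 1.55%. The clearest Th17 region was at -58.5 kb, with 88.8 and 86.1 in Th17, 36.9 and no peak in Th9, and 12.3 and no peak in Th2. At +47.9 kb, in the gene record, Th9 had 47.0 and 37.7 while Th2 had 89.1 and 84.0 and Th17 had 84.9 and 77.0.

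**Figure D5:**
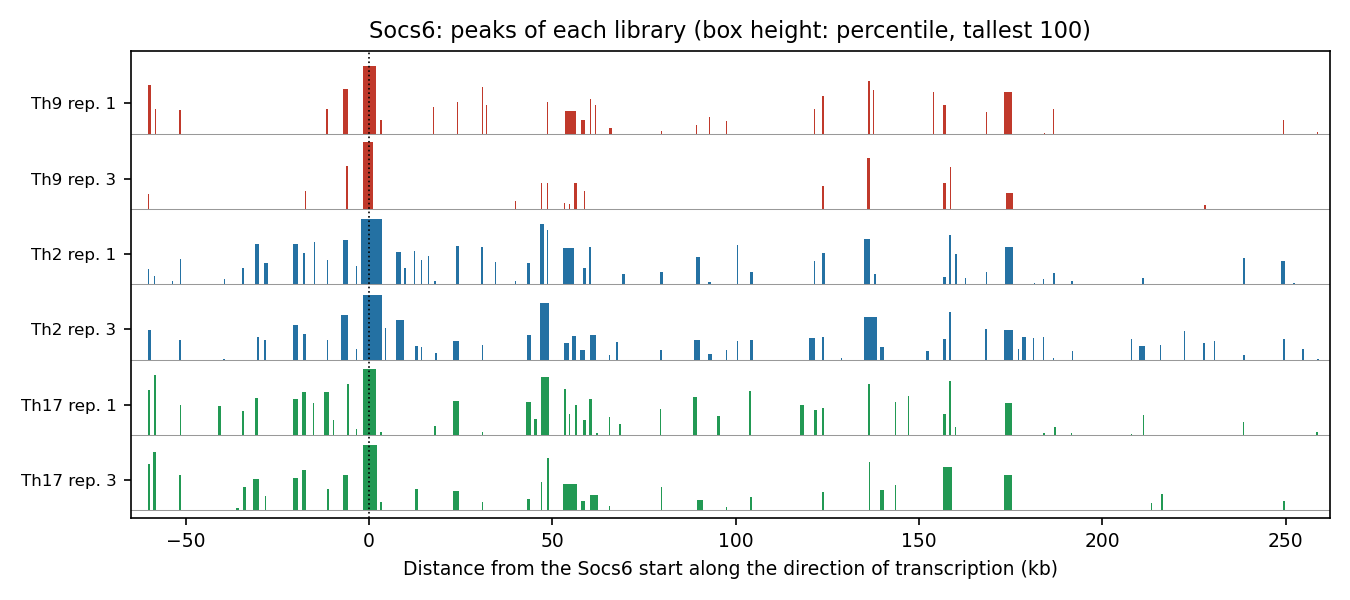
Peaks of each library along Socs6 by distance from its start in kb, with box height as percentile. Th9 replicate 3 calls 13 of the 80 regions and the Th2 libraries 54 and 56, and the tall Th17 boxes at -58.5 kb stand beside short or missing boxes in Th9 and Th2.

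Between Th9 and Th2, every SOCS promoter ranked higher in Th9 on average, by 6.42 percentile points at Socs2, 5.31 at Socs3, 4.88 at Socs1, 3.21 at Cish, 2.25 at Socs6 and 0.908 at Socs5. Both Th9 libraries lay above both Th2 libraries for all but Socs5, or 5 of 6, against 36.6% of the protein-coding genes whose promoter was called in every list, where the median difference was 0.54 (exact permutation p = 0.3333 for each, the smallest possible, and 0.667 for Socs5). This order was not particular to the members. Among other genes of the pathway, listed further below, Jak2, Jak3, Tyk2, Pias3, Pias4, Ptpn1, Ptpn2, Ptpn11, Sh2b3, Socs4 and Socs7 showed it too. Jak1, Pias1, Pias2, Ptpn6 and Usp18 did not. Covered length went the other way at all 6 members, with Th2 higher on average. The share of all protein-coding genes with that order was not computed. The Th2 lists also covered more of the genome, 118 and 108 Mb against 102 and 80.7 Mb in Th9, and the part of that was not tested. Th9 and Th2 values overlapped for covered length at each gene but Socs6.

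Taking the regions of all members together, TTCNNNGAA occurred 100 times, 0.605 per kb against 0.315 per kb over all regions, and TTCNNNNGAA 47 times, 0.285 against 0.252. Per gene the rate of TTCNNNGAA was 0.889 per kb at Socs1, 0.795 at Socs3, 0.636 at Cish, 0.629 at Socs2, 0.524 at Socs6 and none at Socs5. Of the 100, 10 lay in peaks of all Th9 and Th2 libraries and of neither Th17 library, against 3.68% of such words in all regions. They fell at Cish (5), Socs1 (4) and Socs2 (1). The rate was 1.03 per kb in the 10 regions lower in Th17 and 1.13 per kb in the 10 regions higher in Th17, so it did not separate the directions here. Over the genome the corresponding rates were 0.433 and 0.320 per kb.

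Other genes of the pathway were taken as a list of 16, namely the kinases Jak1, Jak2, Jak3 and Tyk2, the STAT inhibitors Pias1 to Pias4, the phosphatases Ptpn1, Ptpn2, Ptpn6 and Ptpn11, the adaptor Sh2b3, the protease Usp18, and Socs4 and Socs7. All 16 had a promoter peak in all 6 libraries. A lower promoter rank in both Th17 libraries was found for 1, Ptpn6 (SHP-1, difference -8.89), and a higher rank for none, with a median difference of 0.00713 against -1.21 for the 6 members and 0.027 for all promoters called in all 6 libraries. The window was covered less in both Th17 libraries for 8 of the 16 and more for none, against 23.1% and 4.2% of protein-coding genes. The median change was -27.4%, against -13.9% for the SOCS members and -16.1% for protein-coding genes. Among the 8 were Ptpn2 (-54.9%), Jak2 (-39.8%) and Usp18 (-39.3%).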

How the data were processed

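ATAC-seq libraries of mouse Th9, Th2 and Th17 cells were analysed, 2 of each, grouped by the labels. Nothing in the labels says that replicates came from separate mice, so p-values measure the spread between these samples. The authors trimmed reads with Trim Galore, aligned them to mm10 with Bowtie2, removed duplicates with Picard and discarded mitochondrial reads and reads of low mapping quality. Per the submitters' processing notes the versions were Trim Galore 0.4.3 and MACS2 2.1.0. The authors called broad peaks in each library on its own with MACS2, from paired fragments, without a control and without a local background. The deposited lists give for each peak a fold enrichment, a −log10 p and a −log10 q. The integer score column that the authors deposited was not used. Read totals were not used, and the background implied by the lists was 5.65 to 17.7 fragments per position, the precision behind a call: it was lowest in Th9 replicate 1, whose lowest listed fold was also the highest (2.11, against 1.71 to 1.83 elsewhere).

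Peaks of the 6 lists were joined into regions, ranked within each list by fold and measured in windows of the gene record plus 30 kb. Genes and starts came from GENCODE M21 (basic set) and sequences from GRCm38. The RefSeq table of promoters held Cish, Socs1 and Socs3 of the members. Differences were tested by exact permutation over libraries, two-sided, with no adjustment, and no comparison could pass 0.05 (smallest p 0.0667 for Th17 against the rest, 0.3333 for Th9 against Th2). Regions could be named if they were promoters, if they were called in both libraries of 1 or 2 subsets and in no other, if they had 1 of the 3 largest differences of a gene, or if they ranked highest. Not every region that met this rule is described in the text. Regions outside this rule (Cish +10.1 kb, Socs3 +5.1 kb, Socs6 +47.9 kb) were named after their values were seen, as were the printed word pairs and the Socs1 upstream stretch. The members and lists were chosen with earlier results of these data known. Alternatives were other thresholds on peaks, lists of equal length, other flanks, a stricter overlap, a wider promoter window, the replicate block and leaving out each library. The steps were tested on simulated data. Python 3.11.15, numpy 2.4.6, pandas 2.3.3, scipy 1.17.1 and matplotlib 3.10.9 were used. Of the marker genes listed for the check of cell types, 1 is not reported here.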

Additional observations from a re-analysis of the deposited data

How the results depend on the processing

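The covered-length differences of Cish and Socs1 kept their direction in all 14 settings each, with ranges on leaving out 1 library of -10375 to -7698 bp and -7001 to -5358 bp, and the Socs2 promoter difference did so in all 12 (-8.12 to -5.04 on leaving out 1 library), although its Th17 and Th2 values overlapped with lists of equal length. Counts of regions moved with the threshold and the window. The total of 125 became 48 with a −log10 q of at least 5, 24 with a fold of at least 4, 80 with a fold of at least 2.2, 248 with a flank of 100 kb and 69 with the span of the basic transcripts, an alternative added after seeing the data, which shortens Socs6. Regions called in all 6 became 19, 11 and 22 at those 3 thresholds, 21 and 66 with flanks of 10 and 100 kb, and 13 where at least 50% of a region had to be covered. Regions lower in Th17 (10) became 5 with a fold of at least 4, 5 and 22 with flanks of 10 and 100 kb. Regions higher in Th17 (10) became 3 with a fold of at least 4, 3 with a fold of at least 2.2, 18 with lists of equal length, 6 and 16 with flanks of 10 and 100 kb, and 4 with the basic transcripts. Directions turned for small differences. For the promoter, Th17 minus the rest was 0.783 (−log10 q of at least 5) and 0.332 (equal lists) at Socs5 and 0.0279 (equal lists) at Socs6, and Th9 minus Th2 was -0.353 at Socs5 (−log10 q of at least 5). For covered length, Th17 minus the rest was -588 bp (fold of at least 4) and -1141 bp (100 kb) at Socs5, -2209 bp (fold of at least 2.2) at Socs6, and 265 and 214 bp (10 kb) at Socs2 and Socs3, and Th9 minus Th2 was 1313 bp at Socs3 (fold of at least 4) and 1379 bp at Socs5 (100 kb). The cause was not tested.

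Leaving out 1 library gave 11 to 21 regions lower in Th17 (21 without Th17 replicate 1) and 10 to 33 higher (33 without Th17 replicate 3), the comparison then resting on fewer libraries. Th17 minus the rest then ranged over -3.34 to 1.18 (Socs1), -3.34 to 0.637 (Socs3), -1.32 to 0.919 (Socs5) and -0.863 to 0.297 (Socs6) for the promoter and -2268 to 12131 bp for covered length at Socs6, where Th9 replicate 3 decides the direction. Th9 minus Th2 in covered length ranged over -3325 to 816 bp (Socs1), -1571 to 136 bp (Socs2) and -4259 to 1297 bp (Socs3). Same-numbered replicates correlated by 0.168 (Th9 and Th2), 0.0313 and -0.00984 in their deviations, so the numbers are not shown to pair the samples. With the replicate block, Cish was -9035 bp with an exact permutation p of 0.111, the smallest that 9 arrangements allow, as was Socs1, and no direction changed.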
